A study of Mus musculus with 9 samples.

Results

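The Notch pathway genes followed here are 10 genes chosen by symbol: the receptors Notch1, Notch2 and Notch3, the ligands Dll1, Jag1 and Jag2, the DNA-binding mediator Rbpj, and the transcriptional effectors Hes1, Hey1 and Heyl. All 10 had a row in both gene tables of the authors, which list 22631 and 27775 genes. The RNA came from satellite cells (muscle stem cells) isolated from hindlimb muscles of mice 9 weeks old. Control mice received oil, and Mutant mice, deficient for Uhrf1 in satellite cells, received tamoxifen at 20 mg/ml. Mice of both groups were given 150 µl on 5 days. Cells of both groups were cultured on Matrigel for 3 days after seeding at 5000 cells/cm2. Each of these groups holds 3 libraries, and 3 libraries labelled Cre Control, from mice that also received tamoxifen, have no comparison here that names them. The promoter that drives the Cre, the floxed or deleted part of Uhrf1, and the genotype of the oil-treated mice are not stated in any source used here. Oil and tamoxifen differ between the groups together with Uhrf1, so treatment and Uhrf1 loss cannot be told apart. Nothing in the labels ties each library to its own animal, and p-values therefore reflect only how far these libraries vary, a spread that may be technical.

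Notch signalling works by contact between neighbouring cells. A ligand on one cell (Delta-like or Jagged) engages a Notch receptor on the next, the receptor is cleaved, and its intracellular domain enters the nucleus and binds Rbpj. Rbpj, which represses its targets in the absence of the domain, then activates them, among them the Hes and Hey genes, which encode basic helix-loop-helix repressors. In muscle, Notch activity is known to keep satellite cells undifferentiated and to support quiescence and Pax7, and it declines as myoblasts commit to fuse. Uhrf1 brings Dnmt1 to DNA after replication, so that methylation is copied to the new strand.

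RefSeq promoter windows (build GRCm38.p6, 250 bases before to 50 after each start) were found for 7 of the 10 members, as 9 windows. They are shown for the 3 receptors, which were all called higher in Mutant, and for the first listed start of Rbpj, which was called lower. Letters run 5′ to 3′ along the gene, and capitals mark matches on either strand to TGGGAA, the core recognised by RBPJ, or to CACNAG, the N box recognised by Hes proteins.
Notch1, chr2:26503773-26504072, minus strand: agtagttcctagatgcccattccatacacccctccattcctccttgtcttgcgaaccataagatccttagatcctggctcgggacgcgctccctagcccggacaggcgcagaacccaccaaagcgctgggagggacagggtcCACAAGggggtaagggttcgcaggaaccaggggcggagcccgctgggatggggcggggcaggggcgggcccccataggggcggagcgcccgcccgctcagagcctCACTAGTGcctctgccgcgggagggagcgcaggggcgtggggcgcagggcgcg
Notch2, chr3:98013288-98013587, plus strand: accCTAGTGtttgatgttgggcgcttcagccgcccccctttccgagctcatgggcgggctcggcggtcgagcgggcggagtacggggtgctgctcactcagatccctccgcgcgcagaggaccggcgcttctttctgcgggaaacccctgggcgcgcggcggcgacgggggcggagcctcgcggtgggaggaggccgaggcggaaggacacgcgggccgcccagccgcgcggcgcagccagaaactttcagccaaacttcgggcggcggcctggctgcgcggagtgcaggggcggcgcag
Notch3, chr17:32166841-32167140, minus strand: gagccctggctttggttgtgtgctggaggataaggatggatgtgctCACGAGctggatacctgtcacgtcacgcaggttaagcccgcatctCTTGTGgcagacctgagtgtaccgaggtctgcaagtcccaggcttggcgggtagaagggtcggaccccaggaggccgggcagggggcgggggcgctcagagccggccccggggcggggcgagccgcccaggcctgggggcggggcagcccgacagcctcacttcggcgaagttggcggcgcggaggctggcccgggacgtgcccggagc
Rbpj, chr5:53590096-53590395, plus strand: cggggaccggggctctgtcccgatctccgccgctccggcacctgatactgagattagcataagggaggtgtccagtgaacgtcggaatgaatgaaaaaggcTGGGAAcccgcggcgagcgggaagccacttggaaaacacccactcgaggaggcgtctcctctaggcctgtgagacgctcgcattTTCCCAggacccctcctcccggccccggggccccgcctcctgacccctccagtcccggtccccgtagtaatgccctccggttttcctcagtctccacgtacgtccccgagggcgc
The Rbpj window held 2 matches to TGGGAA, 1 on each strand, and no match to CACNAG. The receptor windows held no match to TGGGAA. They held 3 matches to CACNAG in Notch1, of which a pair on opposite strands overlap, 1 in Notch2 and 2 in Notch3. Of all 32851 windows of that length, 25.6% held TGGGAA and 42.5% held CACNAG, so both are common, and a match is a description and not a site. The windows of Dll1, Jag1 and Jag2 held no TGGGAA. The member windows were rich in CpG, the dinucleotide whose methylation Uhrf1 helps to maintain, with 15 (the second Dll1 start) to 63 (Jag2) CpG against a median of 7 over all windows, and 34.6% of all windows held at least 15. Methylation was not measured here.

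Values per library are not part of the gene tables, so levels are the authors' group means in TPM (transcript abundance scaled for length and library total, so that genes can be compared), with no spread. Of 2662 genes with both means between 20 and 50 TPM, 3 times the mean was a whole multiple of 0.0001 (within 0.01 of a step) for 2661 in Control and 2658 in Mutant. The same multiple with 2, 4 or 5 in place of 3 came out whole for 34.3% in Control. The means therefore have the form of averages of 3 libraries, as many as the labels give each group. Differences with a standard error (SE) are the product of the deposited statistic and SE, called the test estimate, on the log2 scale, and a gene is said to have risen or fallen where the deposited adjusted p was below 0.05. Intervals are 95% normal intervals from that SE.

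One Control library stood apart in the repeat counts, the only values given per library. IAPEz-int, the internal part of an endogenous retrovirus, took 0.501% of the repeat counts of Control 1 (0.491 to 0.511, a 95% Wilson interval that covers counting error only) and 0.675% in Control 2 (0.664 to 0.686). It made up 13.1% in the library labelled Control 3 (13.1 to 13.2), and 9.29% (9.25 to 9.33), 11.1% (11.1 to 11.2) and 16.3% (16.2 to 16.3) in Mutant 1, 2 and 3. Control 3 thus lay among the Mutant libraries. The authors' deposited repeat table gives mean normalised counts that were matched for all 1093 subfamilies only when Control 3 was left out (largest relative difference 4.70e-10, against 0.496 with all 6 libraries). Its log2 fold change of IAPEz-int was 4.69. No source used here says whether the gene test also left out that library, while the Control TPM means are averages of 3, and its part in the gene results was not tested. Uhrf1 itself fell from 118 to 20.4 TPM in the authors' deposited Mutant table (estimate −3.12 with SE 0.60, adjusted p = 4.01e-06).

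In Mutant cells the 3 Notch receptors and 2 of the 3 effectors were called higher, while Rbpj and the ligand Dll1 were called lower. For Notch1 the group means do not show the rise that its test calls. In the authors' deposited Mutant table, 5 of the 10 members rose (Notch1, Notch2, Notch3, Hes1 and Hey1), 2 fell (Dll1 and Rbpj) and 3 did not pass (Jag1, Jag2 and Heyl). A share of 17.1% of all its genes passed, 9.02% higher and 8.11% lower, and of the 11223 genes averaging at least 3 TPM, the range in which all members lie, 31.5% passed. The median test estimate was 0.38 over the members, 0.01 over all genes and −0.03 over genes averaging at least 10 TPM. By role, medians were 0.45 for the receptors, −0.08 for the ligands and 0.46 for the effectors in the authors' deposited Mutant table, the receptor value being that of Notch1 itself. Medians of the log2 ratio of mean TPM plus 1 were 0.38, 0.06 and 0.59, so the sign of the ligand median depends on the measure. Members share the same libraries and are not replicates of each other, and the difference between roles was not tested.

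Rbpj was the most abundant member and Heyl the least. In Control the order in the authors' deposited Mutant table was Rbpj (118 TPM), Jag2 (91.7), Dll1 (48.6), Notch2 (48.5), Notch1 (35.1), Hes1 (32.5), Notch3 (18.3), Jag1 (8.58), Hey1 (6.09) and Heyl (3.66 TPM). In Mutant, Notch2 and Hes1 stood above Dll1, and Dll1 stood above Notch1, while Rbpj and Jag2 stayed at the top. With no spread per gene, neighbours such as Dll1 and Notch2 in Control cannot be ordered beyond their means. Summed over genes, receptor RNA went from 102 to 130 TPM, ligand RNA from 149 to 146 TPM, and effector RNA from 42.2 to 60.8 TPM in the authors' deposited Mutant table. The receptor sum includes the Notch1 means (35.1 and 34.8 TPM), which do not show the rise that its test calls. The rise of the sum lies in Notch2 (48.5 to 63.4 TPM) and Notch3 (18.3 to 31.4 TPM) in the authors' deposited Mutant table. In a bulk sample, more RNA per cell and more cells that express a gene cannot be told apart.

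**Figure D1:**
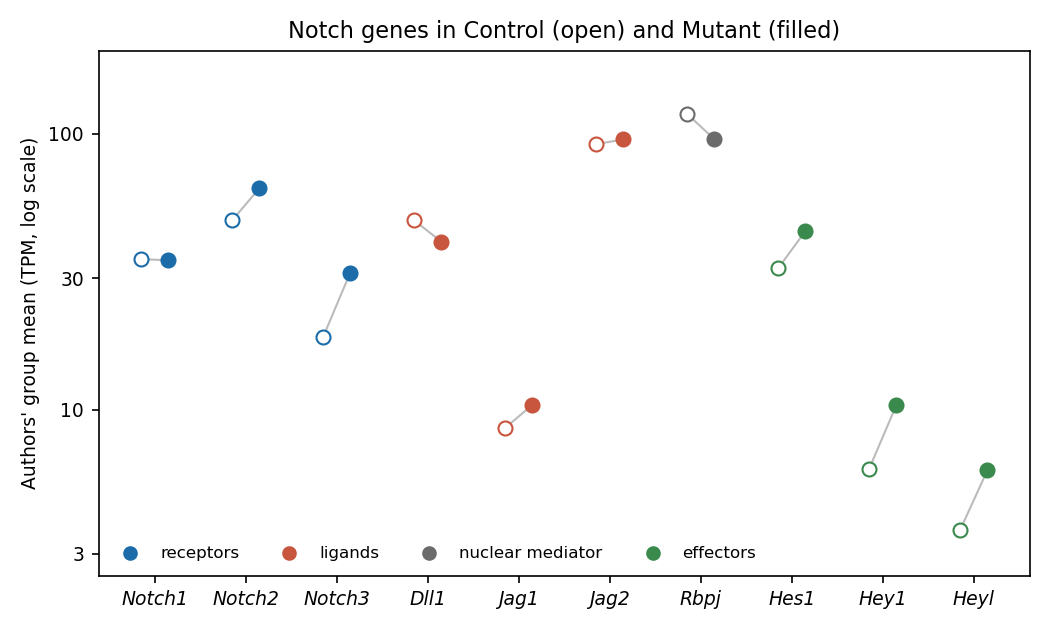
Authors' group mean of each Notch gene in TPM (log scale) for Control (open) and Mutant (filled), coloured by role, with no error bars because the tables hold means only. Notch2, Notch3, Jag1, Hes1, Hey1 and Heyl lie higher in Mutant, and Rbpj and Dll1 lower. Notch1 lies at 35.1 and 34.8 TPM, and Jag2 at 91.7 and 95.4 TPM.

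Notch3 had the smallest adjusted p of the members. Notch3 (ENSMUSG00000038146; chromosome 17, 32120820 to 32166852, minus strand, GRCm38) encodes a receptor that smooth muscle, pericytes and satellite cells express, and which is reported to restrain myoblast proliferation. Its mean was 18.3 TPM in Control and 31.4 TPM in Mutant in the authors' deposited Mutant table. The test estimate was 0.77 (SE 0.06, interval 0.65 to 0.89, adjusted p = 8.62e-34), higher than that of 96.9% of the genes averaging at least 10 TPM. Among 9 pericyte and smooth muscle markers, a list that holds Notch3 itself, Rgs5 also rose in the authors' deposited Mutant table, from 0.359 to 2.93 TPM (estimate 3.03 with SE 0.37, adjusted p = 6.39e-14). The list summed to 477 and 498 TPM, most of it Acta2 (422 and 421 TPM), with Cspg4 next at 21.6 and 28.3 TPM in the authors' deposited Mutant table. The pericyte channel genes Abcc9 and Kcnj8, named after their values were seen, lay at 1.25 and 1.3 TPM and at 0.0789 and 0.0836 TPM. The part of such cells in the Notch3 difference was not tested.

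Notch2 (ENSMUSG00000027878; chromosome 3, 98013527 to 98150361, plus strand), the most abundant of the 3 receptors, also rose. Its mean went from 48.5 to 63.4 TPM in the authors' deposited Mutant table, and its test estimate of 0.38 (SE 0.06, interval 0.27 to 0.49, adjusted p = 5.90e-10) equalled its log2 ratio of mean TPM plus 1.

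Notch1 (ENSMUSG00000026923; chromosome 2, 26457903 to 26516663, minus strand) was called higher by its test, while its means were nearly equal. The authors' deposited Mutant table lists it at 35.1 TPM in Control and 34.8 TPM in Mutant, a log2 ratio of −0.02, beside a test estimate of 0.45 (SE 0.08, interval 0.29 to 0.60, adjusted p = 5.36e-07). The gap is 0.46, and the ratio of the means lies outside the interval of the test. Even a gap above 0.2 is uncommon: 409 of 8687 genes averaging at least 10 TPM (4.71%) had one, and 20 of 3877 called genes had opposite signs in the authors' deposited Mutant table. Among the members, Notch1 and Heyl passed 0.2, and Notch1 and Jag2 had opposite signs. Heyl, at a mean of 4.84 TPM, lies outside those 8687 genes. The direction of Notch1 in Mutant is therefore given as a call of the test only.

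**Figure D2:**
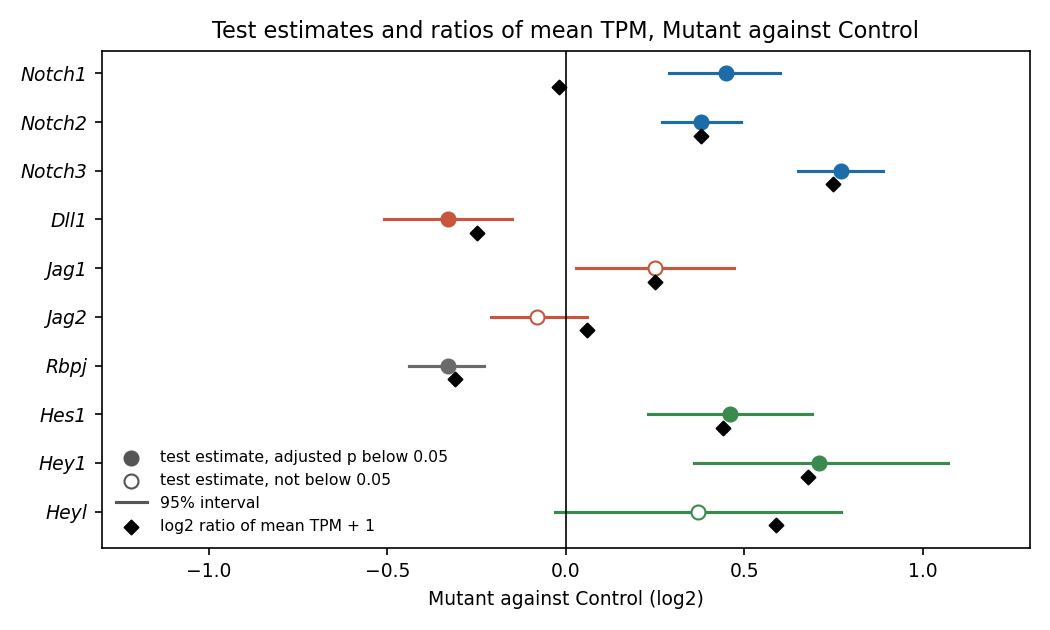
Test estimate of each Notch gene with its 95% interval (circles, filled where the adjusted p was below 0.05) and the log2 ratio of mean TPM plus 1 (diamonds), Mutant against Control. Circle and diamond lie close for most members and apart for Notch1 (0.45 and −0.02), and Jag2 has them on opposite sides of 0 (−0.08 and 0.06).

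Of the ligands, Dll1 alone passed. Dll1 (ENSMUSG00000014773; chromosome 17, 15367354 to 15376872, minus strand) encodes the Delta-like ligand that activated satellite cells and myoblasts present to their neighbours. It fell in the authors' deposited Mutant table from 48.6 to 40.6 TPM (estimate −0.33 with SE 0.09, interval −0.51 to −0.15, adjusted p = 0.00380). Jag2 (ENSMUSG00000002799; chromosome 12, 112907819 to 112929776, minus strand), the most abundant ligand, stood at 91.7 and 95.4 TPM in the authors' deposited Mutant table. Its test estimate was −0.08 (interval −0.21 to 0.06, adjusted p = 0.6). Jag1 (ENSMUSG00000027276; chromosome 2, 137081456 to 137116644, minus strand) stood at 8.58 and 10.4 TPM (estimate 0.25 with SE 0.11, p = 0.0267, adjusted p = 0.124 in the authors' deposited Mutant table).

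Rbpj, through which all of the receptors act, was lower. Rbpj (ENSMUSG00000039191; chromosome 5, 53466152 to 53657362, plus strand) went from 118 to 95.6 TPM in the authors' deposited Mutant table (estimate −0.33 with SE 0.05, interval −0.44 to −0.23, adjusted p = 6.74e-09). Its value is uncertain because processed pseudogenes, Rbpj-ps1 and Rbpj-ps3, carry near-copies of its transcript, and no source used here says how reads with several matches were counted. Neither pseudogene has a value in the authors' deposited Mutant table, and the part of such reads in the Rbpj value was not tested. In the table of the PT and PUT arms Rbpj-ps3 had a mean of 813 normalised counts beside 1928 for Rbpj, and a log2 fold change of −0.44 beside 0.32, both as deposited by the authors. Rbpj-ps1 had 40.1 normalised counts and a log2 fold change of −1.72 in the authors' deposited PT table.

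Of the effectors, Hes1 and Hey1 passed and Heyl did not. Hes1 (ENSMUSG00000022528; chromosome 16, 30064384 to 30067796, plus strand), a repressor that also answers to pathways other than Notch, was higher, at 32.5 and 44.4 TPM in the authors' deposited Mutant table (estimate 0.46 with SE 0.12, interval 0.23 to 0.69, adjusted p = 0.000872). Hey1 (ENSMUSG00000040289; chromosome 3, 8663359 to 8667256, minus strand), which with Heyl is needed to maintain satellite cells in mice, was higher too, at 6.09 and 10.4 TPM in the authors' deposited Mutant table (estimate 0.71 with SE 0.18, interval 0.36 to 1.07, adjusted p = 0.000853). Heyl (ENSMUSG00000032744; chromosome 4, 123233556 to 123249875, plus strand), listed at 3.66 and 6.03 TPM, had a test estimate of 0.37 (SE 0.20, interval −0.03 to 0.77, adjusted p = 0.254 in the authors' deposited Mutant table). Its ratio of mean TPM plus 1 was higher, at 0.59.

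Further pathway genes passed in both directions. Of 66 further genes of ligand and receptor handling, nuclear co-factors and other targets, 9 rose and 3 fell in the authors' deposited Mutant table. There 17.1% of all genes passed, and 31.5% of those averaging at least 3 TPM. Their count lies near the first share and below the second, and is not a result about them. The same 2 shares stand beside the counts of the lists that follow. The endothelial receptor Notch4 was at 1.51 and 2.7 TPM with a test estimate of −0.09 (SE 0.43), and the endothelial ligand Dll4 at 0.121 and 0.0913 TPM, in the authors' deposited Mutant table. For Notch4 the log2 ratio of mean TPM plus 1 was 0.56, opposite in sign to its estimate but within the test's interval (−0.93 to 0.74). Dll3, a ligand that acts within the cell, was at 0.173 and 0.440 TPM (adjusted p = 0.617 in the authors' deposited Mutant table). Dlk2, a Delta-like membrane protein without the domain that activates receptors, fell from 25.6 to 14.8 TPM (estimate −0.80 with SE 0.14, adjusted p = 6.02e-07 in the authors' deposited Mutant table). None of the 5 genes that ubiquitinate and internalise ligands passed in the authors' deposited Mutant table.

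Of the genes that process receptors, those that passed are named beside a background of 17.1% of all genes and 31.5% of those averaging at least 3 TPM. Their count lies close to the first share and below the second. Lfng, the Fringe glycosyltransferase that sets which ligands a receptor prefers, fell from 18.7 to 15.2 TPM in the authors' deposited Mutant table (estimate −0.67 with SE 0.16, adjusted p = 0.000317). Its log2 ratio of mean TPM plus 1 was smaller in size, at −0.28, and lies outside the interval of the test (−0.98 to −0.36). The other 4 glycosylation genes did not pass. Of 10 genes of receptor cleavage 2 rose, both of gamma-secretase: the catalytic subunit Psen2 from 4.84 to 7.71 TPM (0.67, SE 0.24) and nicastrin, Ncstn, from 58.9 to 70.7 TPM (0.22, SE 0.07), as test estimates from the authors' deposited Mutant table. Of 11 genes of receptor turnover and inhibition only the ubiquitin ligase Dtx3l rose, from 2.61 to 4.26 TPM (estimate 0.76 with SE 0.21, adjusted p = 0.00276 in the authors' deposited Mutant table).

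Among 8 co-activators the acetyltransferase Kat2a fell (estimate −0.25 with SE 0.08) and none rose in the authors' deposited Mutant table, so the Mastermind genes Maml1, Maml2 and Maml3 did not pass. Among the co-repressors, Ctbp2 (0.24, SE 0.07) and Cir1 (0.46, SE 0.15) rose and none fell, as test estimates from the authors' deposited Mutant table. Of the 9 other Hes and Hey genes and feedback targets, 3 rose in the authors' deposited Mutant table, none of them named Hes or Hey. These were Bhlhe40, a helix-loop-helix repressor with inputs other than Notch, from 21 to 42.7 TPM (estimate 1.16 with SE 0.10, adjusted p = 4.85e-28 in the authors' deposited Mutant table), its paralogue Bhlhe41 (0.23, SE 0.07) and Id4 (0.76, SE 0.25). Hes6, which antagonises Hes1 and is high in myoblasts, was at 536 and 490 TPM (estimate −0.14 with SE 0.07, adjusted p = 0.230 in the authors' deposited Mutant table). Hey2 averaged 0.243 and 0.429 TPM (adjusted p = 0.768 in the authors' deposited Mutant table), and Hes5 had no value in either gene table used here.

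**Figure D3:**
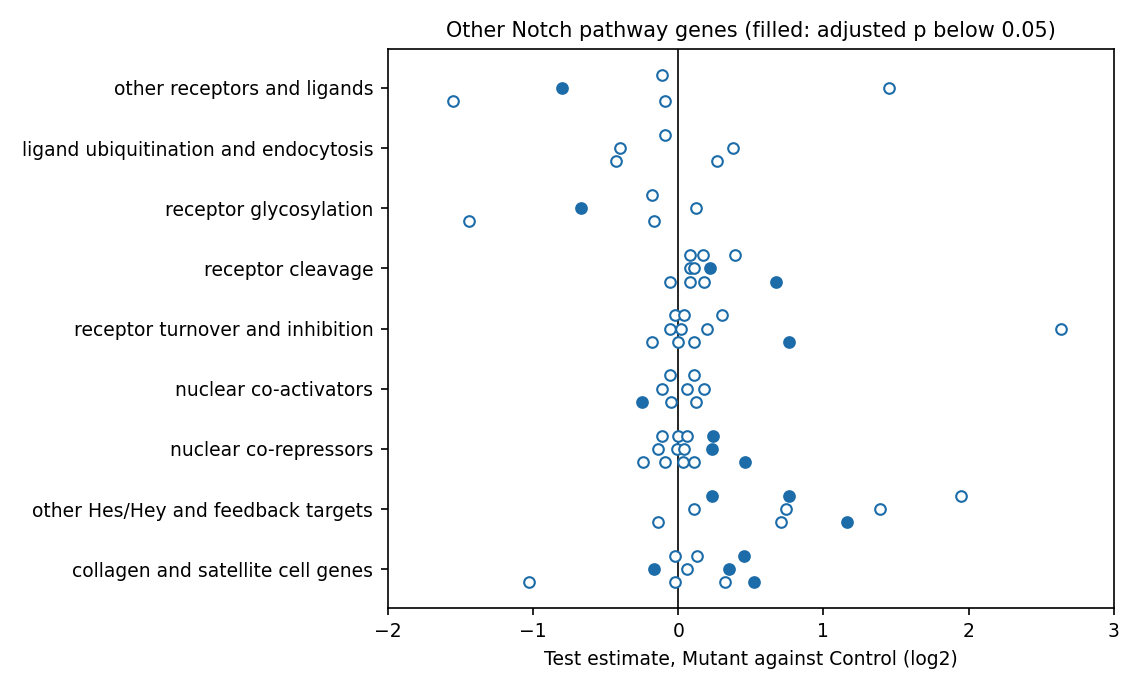
Test estimate of each further Notch pathway gene, Mutant against Control, by list, with filled points where the adjusted p was below 0.05. Most genes lie near 0, and filled points are few in each list; the far open points are genes of low level with wide errors.

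Genes reported downstream of Notch in muscle stem cells were mixed. Of 10, 3 rose and 1 fell in the authors' deposited Mutant table, where 17.1% of all genes passed, and 31.5% of those averaging at least 3 TPM. The satellite cell transcription factor Pax7 rose from 23.1 to 29.6 TPM (estimate 0.35 with SE 0.08), Megf10, a receptor that interacts with Notch in satellite cells, from 77.5 to 107 TPM (0.45, SE 0.07), and Col6a1 from 5.30 to 7.67 TPM (0.52, SE 0.17), in the authors' deposited Mutant table. The collagen genes Col5a1 (0.06, interval −0.08 to 0.20) and Col5a3 (0.13, interval −0.19 to 0.45), named after their values were seen, did not pass by their test estimates in the authors' deposited Mutant table. Myod1, the myogenic determination factor, fell from 1018 to 914 TPM (−0.17, SE 0.05) in the authors' deposited Mutant table.

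Markers of the cells themselves and of other cells were read beside these values. The 8 satellite cell and myoblast markers summed to 2639 TPM in Control and 2584 TPM in Mutant, led by Myod1 and by Des (763 and 892 TPM), with Des and Pax7 higher and Myod1, Itga7, Cdh15 and Vcam1 lower in the authors' deposited Mutant table. The 8 myocyte markers summed to 2447 and 1474 TPM, led by Acta1 (1025 and 708 TPM) and Myog (589 and 291 TPM), with Actc1 lower and 7 not passing in the authors' deposited Mutant table. The part of the myocyte marker difference in the Notch values was not tested. The 10 endothelial markers summed to 21.5 and 16.4 TPM, led by Egfl7 (6.10 and 5.41 TPM) and Pecam1 (3.91 and 2.25 TPM), with Tek higher and Pecam1 and Cdh5 lower in the authors' deposited Mutant table. Of 10 macrophage and leukocyte markers 7 were listed, summing to 32.5 and 112 TPM with Laptm5 and Cd68 higher, led by Laptm5 (25.1 and 84.8 TPM) and Fcer1g (3.22 and 19.3 TPM), with the common leukocyte gene Ptprc averaging 0.381 and 0.303 TPM in the authors' deposited Mutant table. The 10 fibroblast markers summed to 357 and 489 TPM, led by Col3a1 (179 and 181 TPM) and Gsn (110 and 229 TPM, the 1 that rose), in the authors' deposited Mutant table. The 6 Schwann cell markers summed to 7.05 and 15.9 TPM, led by Ngfr (2.86 and 9.84 TPM) and Mbp (1.75 and 3.94 TPM), which both rose in the authors' deposited Mutant table. No listed marker was at 0 in either group, and what the other cells add to the Notch values was not tested. Markers outside the 2 highest of a list are named because they passed or, for Ptprc, after its values were seen.

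The second gene table compares arms that the authors call PT and PUT, which the labels tie to no group, so they are given none here. Uhrf1 was lower in PT in the authors' deposited PT table (log2 fold change −4.00, SE 0.27, adjusted p = 1.81e-48). Of the 10 members 6 passed there, 2 higher (Jag1 and Rbpj) and 4 lower (Notch3, Dll1, Jag2 and Heyl) in PT. Of all its genes 47.2% passed, 25.1% higher and 22.1% lower, so the members' count lies near the background and is not a result about them. None of the receptors or effectors was called higher here. It is not stated whether the arms share libraries with the first comparison, so each table's values stand side by side and their difference was not tested.

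Notch3 was lower in PT, with a log2 fold change of −0.34 (SE 0.07, adjusted p = 1.88e-06 in the authors' deposited PT table), against 0.77 in the first table. Rbpj was higher, with 0.32 (SE 0.08, adjusted p = 9.96e-05 in the authors' deposited PT table), against −0.33. Dll1 was lower in both tables, with −0.42 (SE 0.09, adjusted p = 6.52e-06) in PT and −0.33 in Mutant in the authors' deposited tables. Those 3 were the members called in both, 1 in the same direction and 2 in opposite directions.

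The other ligands parted. Jag1 was higher in PT with a log2 fold change of 0.64 (SE 0.13, adjusted p = 5.31e-06), and Jag2 lower with −0.44 (SE 0.07, adjusted p = 1.51e-08), in the authors' deposited PT table. Heyl was lower with −0.67 (SE 0.17, adjusted p = 0.000294), on a mean of 169 normalised counts in the authors' deposited PT table. Notch1 (0.14, adjusted p = 0.124), Notch2 (0.12, adjusted p = 0.0881), Hes1 (−0.11, adjusted p = 0.510) and Hey1 (0.38, adjusted p = 0.0987) did not pass there by the authors' DESeq2 test. Their 95% intervals were −0.01 to 0.29 for Notch1, 0.00 to 0.23 for Notch2, −0.35 to 0.13 for Hes1 and −0.00 to 0.77 for Hey1.

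**Figure D4:**
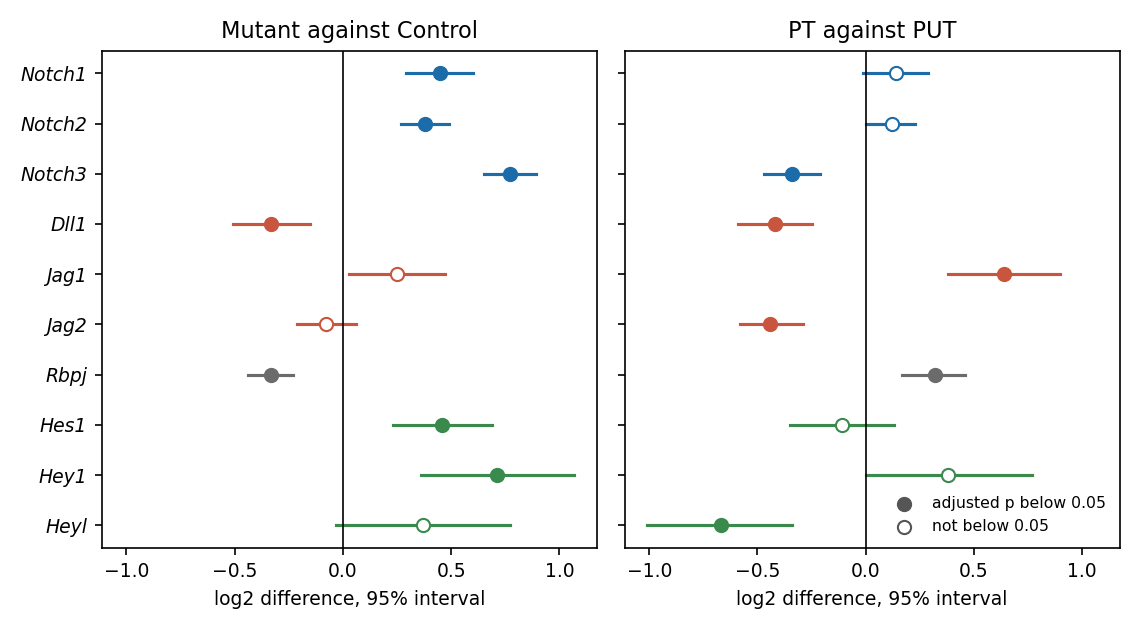
Log2 difference of each Notch gene with its 95% interval in the authors' 2 gene tables: Mutant against Control (test estimate, left) and PT against PUT (log2 fold change, right), filled where the adjusted p was below 0.05. Dll1 lies below 0 in both panels, Notch3 goes from 0.77 to −0.34 and Rbpj from −0.33 to 0.32.

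Some members overlap other annotated genes, and whether the authors' counting used strand is not given, although the library kit keeps it. Notch1 overlaps 0610009E02Rik on the opposite strand, with a mean of 106 normalised counts beside 1326 for Notch1 and a log2 fold change of 0.55 (adjusted p = 0.0117) in PT in the authors' deposited PT table. Notch3 overlaps the antisense gene Gm17276 (131 normalised counts, −0.06, adjusted p = 0.818), and Notch2 holds Gm42820 on the same strand (239 normalised counts, 0.55, adjusted p = 0.000133), in the authors' deposited PT table. Reads of such pairs may not be separable.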

How the data were processed

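Libraries of 3 groups (Control, Mutant and Cre Control, 3 each) are in the series. Per the submitters' processing notes, Control and Mutant list DESeq2, featureCounts 2.0.1, STAR 2.7.6a and Trim Galore 0.6.6 with no order or role, and Cre Control lists HISAT2 2.2.1 in place of STAR; builds GRCm38 and mm10 are named. For Mutant against Control the authors deposited mean TPM values, a log2 ratio, and, per the file headers, statistics and standard errors (score values) with p-values and adjusted p-values. Its log2 column equals the log2 ratio of mean TPM plus 1 within 4.79e-08. For PT against PUT the authors deposited mean normalised counts (a mean signal), log2 fold changes, standard errors, statistics and p-values. For repeats the authors deposited whole-number counts per library (1794698 to 2245124) and a comparison table. Depth per library is unknown for genes.

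No gene test was run here, since these tables hold no library values: calls are the deposited adjusted p below 0.05. Test estimates, intervals, list counts and motif matches were computed with Python 3.11.15, pandas 2.3.3, numpy 2.4.6 and scipy 1.17.1, and adjustments were tested on simulated data. Repeat means used median-of-ratios size factors. GENCODE M21 (GRCm38) gave positions; it holds 22497 of 22631 and 27681 of 27775 gene IDs. Every member is named; of other pathway genes, those that passed in Mutant (except what is not reported here) plus Notch4, Dll4, Dll3, Hey2, Hes5 and Hes6; of marker lists, the 2 highest by mean TPM. Nothing is named for likeness of pattern, since 2 group means allow none. The members and lists were chosen with earlier results of these data known. The alternatives were other thresholds, adjustments, pseudocounts, direction rules and centring. Cre Control was not analysed here.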

Additional observations from a re-analysis of the deposited data

How the results depend on the processing

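Counts of Notch members called were compared with 6 alternatives for Mutant against Control and 4 for PT against PUT. With a threshold of 0.01 or with Benjamini-Hochberg adjustment over other gene sets or Benjamini-Yekutieli adjustment, the counts stayed at 5 higher and 2 lower in Mutant and at 2 and 4 in PT. In Mutant they also stayed at 5 and 2 with a test estimate of at least 0.32 in size and after centring on the median (which was −0.03). These 2 alternatives say little about how firm the counts are. The called estimates smallest in size, those of Dll1 and Rbpj, were −0.33, just past the cut of 0.32. Centring on that median is too small a shift to turn the direction of any called member. In PT that median was −0.01, and centring was run on single members. The threshold of 0.01 also says little. The largest adjusted p of a called member was 0.00380 (Dll1) in Mutant and 0.000294 (Heyl) in PT in the authors' deposited tables. Taking the direction from the ratio of mean TPM gave 4 higher and 3 lower, since Notch1 changed sides. For single members, 44 of 50 alternative values kept their direction. The 6 that reversed were Notch1, at −0.02, and Jag2, at 0.06, each under the ratio of mean TPM with a pseudocount of 1, of 0.1 and with none; the cause was not tested. No paired analysis was possible because the gene tables hold no values per library, so no replicate could be blocked or left out. Depth per library is unknown for genes, and the group means carry no spread.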

Other observations

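In the PT and PUT table the further pathway genes moved in both directions. Of 63 measured, 16 were higher and 14 lower in PT in the authors' deposited PT table, where 47.2% of all genes passed. Dlk2 (log2 fold change −1.64, SE 0.16) and Lfng (−1.04, SE 0.15) were lower, as in Mutant, and Hes6 was lower with −0.57 (SE 0.08, adjusted p = 2.42e-11), in the authors' deposited PT table. Bhlhe40, higher in Mutant, did not pass there (0.14, SE 0.12, adjusted p = 0.360 in the authors' deposited PT table), while Bhlhe41 was higher (0.97, SE 0.11). Of the 10 genes reported downstream of Notch in muscle stem cells, 7 were lower and 1, Megf10, higher in PT in the authors' deposited PT table. Among them, and named after their values were seen, Col5a2 (−1.24, SE 0.05), Col5a3 (−1.3, SE 0.15) and Col6a1 (−0.72, SE 0.17) were lower, as was Pax7 (−0.43, SE 0.10), which was higher in Mutant. The difference between the tables was not tested.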
